A study of Mus musculus with 6 samples.

Results

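LINE-1 elements are mobile sequences that copy themselves through RNA, and the mouse genome holds very many of them. A complete copy starts with a promoter built of repeated, CpG-rich monomers, followed by the genes ORF1 and ORF2, which encode an RNA-binding protein and the reverse transcriptase. The promoter is known to be kept silent in somatic cells by methylation of its CpGs. Uhrf1 recognises newly replicated DNA that carries methyl groups on a single strand and recruits the methyltransferase Dnmt1 to it, so that methylation passes to the daughter cells.

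The CpGs around LINE-1 copies were taken as the autosomal cytosines with at least 6 reads in all 6 libraries that lay within 3000 bp of a predicted product of the LINE-1 qPCR primers used in the study. A product could be at most 500 bp long and each primer could carry at most 2 mismatches. Of 636736 autosomal cytosines with this coverage (646645 with the sex chromosomes), 6163 met the rule and are called LINE-1 CpGs. They lay around 1648 of the 5795 autosomal products, each called a copy here, and 589 of these copies matched both primers exactly.

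5-Methylcytosine was measured by Ox-RRBS, in which DNA is cut at CCGG, 5-hydroxymethylcytosine is oxidised so that it reads as unmethylated, and bisulfite converts unmethylated cytosine. The tissue was full cortex of C57BL/6 embryos at E16. The study defines cKO embryos (Uhrf1 -/- in the labels) as Emx1 Cre+/-; Uhrf1 fl/fl, with exon 4 of Uhrf1 floxed on both alleles, and control embryos (Uhrf1 +/- in the labels) as Emx1 Cre+/-; Uhrf1 fl/+, so that both carry Cre and each has 3 libraries. Emx1-Cre acts in progenitors of the dorsal telencephalon, so cortical cells of other origin still carry Uhrf1. No cytosine of Uhrf1 exon 4 (chr17:56310676-56310836, GRCm38) was listed in any library, so the deletion could not be checked in these data. Since no label names the litter of a library, the p-values below reflect only how far these libraries lie apart, which may in part be technical.

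The library labelled control 1 stood within the range of the cKO libraries in its mean over LINE-1 CpGs, though not at every copy. The main results are given with and without it, while some others, such as the differences of single copies, use all 3 controls. The libraries held 18238737 to 31019082 reads over listed cytosines, of which 161063 to 265340 fell on LINE-1 CpGs. The median coverage of a LINE-1 CpG was 31.0 reads in cKO 3, the deepest library, and 19 reads in control 1, the shallowest.

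The primers amplify a stretch of ORF1, which gives every copy a direction. Most products were 58 bp long (5752 of 5795, range 49 to 65 bp), and they fell into 1489 distinct sequences. The 2 commonest are shown because they define where the copies are, in the sense of ORF1 with their only CpG in capitals. The first occurred 1594 times on the autosomes, for example at chr1:4561354-4561411 on the plus strand, and the second 925 times, for example at chr1:5077416-5077473 on the plus strand (GRCm38).
ORF1 product 1: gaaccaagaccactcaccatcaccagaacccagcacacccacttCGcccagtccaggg
ORF1 product 2: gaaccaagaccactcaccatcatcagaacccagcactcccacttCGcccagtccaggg

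LINE-1 CpGs themselves lay almost entirely to one side of the products. On the 5′ side, towards the promoter, lay 96.9% of them, and 80.9% (4986) lay within 1000 bp on that side. Another 183 lay on the 3′ side and 9 inside a product. All were CpGs, 99.4% lay within 60 bp of a CCGG site, and 81.6% were soft-masked in the reference, the mark of annotated repeats. A copy held a median of 3.0 of them (range 1 to 31), and 244 copies held a single one. Copies of one family resemble each other, so the sequence of a cytosine with 20 bases on each side (41 bases) was counted through the genome. It occurred once for 4604 LINE-1 CpGs and up to 16624 times for the others. Whether the reads there were long enough to be placed uniquely was not tested.

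The commonest contexts are shown because they carried very different amounts of methylation in the cKO. Each is 30 bases in the sense of the copy with the measured CpG in capitals. Context 1 is shown from chr1:20432220-20432249 (plus strand), context 2 from chr1:7712773-7712802 (minus strand), context 3 from chr1:52940012-52940041 (plus strand) and context 4 from chr1:44728570-44728599 (minus strand).
context 1: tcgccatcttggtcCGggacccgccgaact
context 2: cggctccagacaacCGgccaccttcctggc
context 3: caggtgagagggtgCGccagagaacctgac
context 4: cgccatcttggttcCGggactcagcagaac

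LINE-1 CpGs were less methylated in the cKO libraries than in 2 of the 3 controls. Their mean methylation was 49.5%, 49.0% and 41.9% in cKO 1, 2 and 3, against 43.7%, 85.4% and 85.5% in control 1, 2 and 3. Control 1 lay within the range of the cKO libraries, and controls 2 and 3 lay far above it. The group means were 46.8% ± 4.2 and 71.5% ± 24.1 (SD, n = 3 each), a difference of -24.7 points (two-sided exact permutation test, p = 0.3). Without control 1 the difference was -38.7 points with no overlap (exact permutation p = 0.1, the smallest that 3 against 2 or 3 against 3 libraries can give). The cKO libraries thus held 65.4% of the control level, or 54.7% of the level of controls 2 and 3. Control 1 was left out because of its level, so the lack of overlap and this p were fixed by that choice. The exact permutation p-values without control 1 in the next paragraphs carry the same limit.

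**Figure D1:**
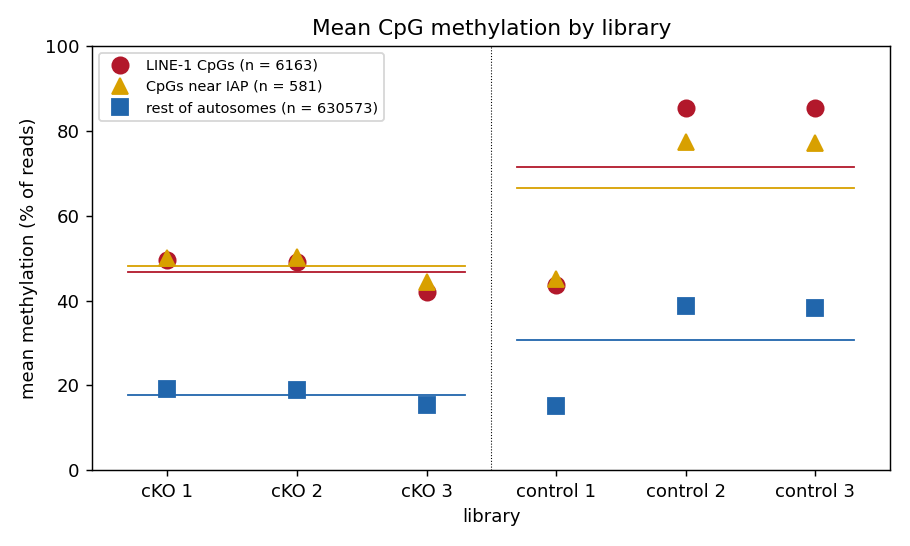
Mean methylation (percent of reads, y axis) in each library (x axis) for LINE-1 CpGs, CpGs near IAP and the other autosomal CpGs, with horizontal lines at the group means. The LINE-1 points of the cKO libraries lie between 41.9% and 49.5%, control 1 lies at 43.7%, and controls 2 and 3 lie at 85.4% and 85.5%.

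The other 630573 autosomal cytosines were lower in every library. Their means were 19.1%, 19% and 15.4% in cKO 1, 2 and 3, against 15.3%, 38.6% and 38.3% in control 1, 2 and 3. In points, the difference between the groups was larger at LINE-1 CpGs. Their excess over the rest was 28.9 ± 2.1 points in cKO and 40.8 ± 10.7 points in control libraries (SD, n = 3 each), a difference of -11.9 points (exact permutation p = 0.3), and -18.0 points without control 1 (exact permutation p = 0.1). As a ratio the order turned round, since the LINE-1 mean was 2.63 times the rest in cKO libraries, against 2.44 times in the 3 controls and 2.22 times in controls 2 and 3.

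CpGs within 3000 bp of IAP elements, retroviral repeats that were located with the study's primers in the same way, are given for comparison. Their 581 cytosines averaged 49.9%, 50.2% and 44.4% in cKO 1, 2 and 3, against 45%, 77.4% and 77.2% in control 1, 2 and 3. LINE-1 CpGs were thus 1.39 points below IAP CpGs in the mean of the cKO libraries, against 4.97 points above them in the mean of the controls (exact permutation p = 0.3, and p = 0.1 without control 1).

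In the cKO libraries most LINE-1 CpGs had intermediate methylation and few had none. The share of LINE-1 CpGs at 80% methylation or more was 10.5%, 10.4% and 6.9% in cKO 1, 2 and 3, against 9.6%, 78.3% and 78.3% in control 1, 2 and 3. Between 20% and 80% lay 80.5%, 80.9% and 79.3% of them in the cKO libraries, against 73.7%, 19.1% and 19.3% in the controls. Under 20% methylation lay 9.0%, 8.6% and 13.8% of them in the cKO libraries, against 16.7%, 2.6% and 2.5% in the controls. Elsewhere on the autosomes 58.7%, 58.9% and 65.3% were under 20% in the cKO libraries, against 67.2%, 51.0% and 51.3% in the controls.

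**Figure D2:**
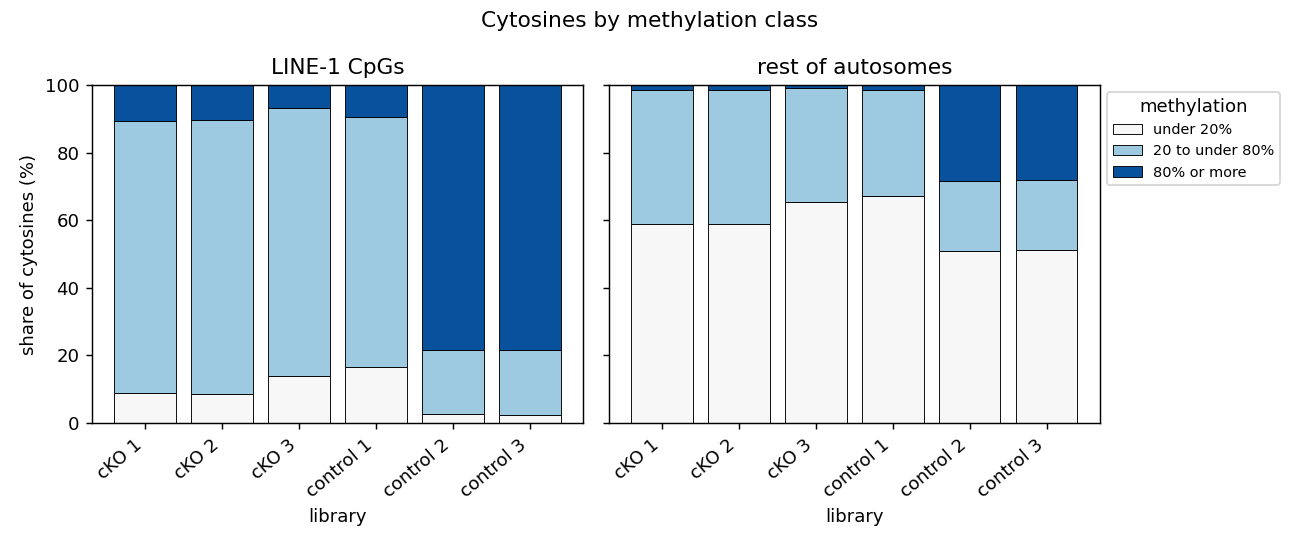
Share of cytosines (y axis, percent) under 20%, from 20% to under 80% and at 80% methylation or more in each library (x axis), for LINE-1 CpGs (left) and the rest of the autosomes (right). The middle class holds 79.3% to 80.9% of LINE-1 CpGs in the cKO libraries, 73.7% in control 1 and 19.1% and 19.3% in controls 2 and 3.

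In a comparison at a matched level in control 2, cytosines were binned by their methylation in that library and read in the others. LINE-1 CpGs at 90% to 100% in control 2 (n = 3228) averaged 52.2% ± 4.4 in cKO libraries (SD, n = 3) and 91.1% in control 3. Other autosomal CpGs of that bin (n = 99682) averaged 42.1% ± 4.9 in cKO libraries and 88.4% in control 3. In the bin of 80% to 90% the cKO means were 46.5% ± 4.7 at LINE-1 CpGs and 36.4% ± 4.9 elsewhere, with control 3 at 88.0% and 83.7%. LINE-1 CpGs had the higher mean in all 10 bins, in cKO as in control 3, so the bins matched control 2 only. The cKO share of the control 3 level was lower at LINE-1 CpGs in every bin below 40% and higher in every bin above. It was 44.5% against 48.9% elsewhere at 30% to 40%, and 57.3% against 47.6% at 90% to 100%. These differences were not tested.

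**Figure D3:**
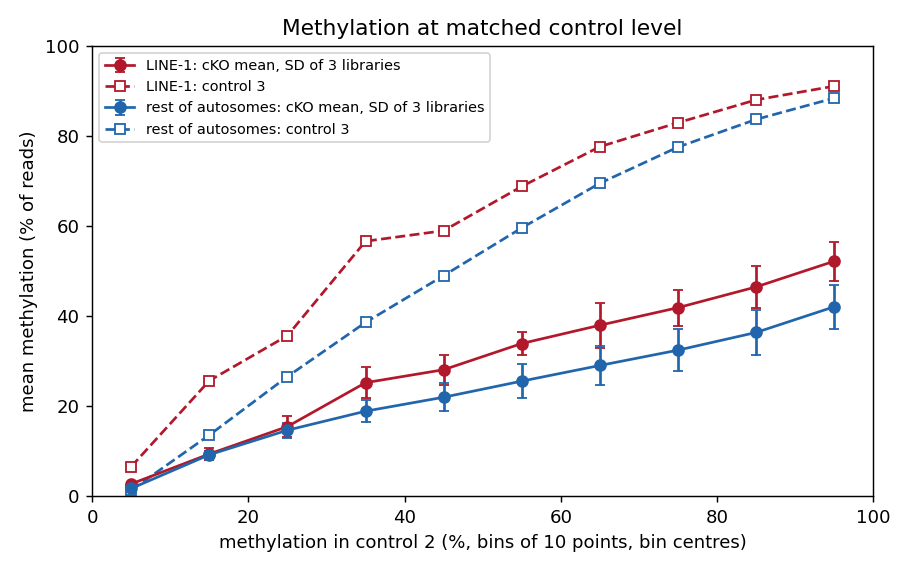
Mean methylation (y axis, percent of reads) of LINE-1 CpGs and of other autosomal CpGs in bins of their methylation in control 2 (x axis), as the cKO mean with the SD of 3 libraries and as the value of control 3. At 90% to 100% the cKO means are 52.2% for LINE-1 CpGs and 42.1% for the rest.

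The difference was also tested in 100 bp windows, of which 2973 held a LINE-1 CpG. With all 6 libraries no window was called lower or higher at a q under 0.01 with group means at least 25 points apart, near LINE-1 or elsewhere (0 of 2973 and 0 of 280595, a background of 0%, quasi-binomial test with limma's moderated dispersion). At an unadjusted p under 0.05, 741 LINE-1 windows (24.9%) passed and all were lower in the cKO, against 42433 (15.1%) of all windows passing in either direction. Without control 1, 2109 LINE-1 windows (70.9%) were called lower and 0 higher, against a background of 44.6% of all autosomal windows called lower. Many windows elsewhere had too little methylation to fall by 25 points. Among windows where controls 2 and 3 averaged 25% or more, 71.9% of 2935 LINE-1 windows were called, against 68.2% of 180131 others. At 80% or more the order turned round, with 76.5% of 2404 LINE-1 windows called against 83.8% of 102367 others. These calls depend on leaving out a library by its outcome.

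By class, the calls without control 1 differed in share, which is a description with no test. Copies with exact primer sites had 56.7% of their 905 windows called and copies with mismatched sites 77.2% of 2068. Intergenic windows were called in 72.7% of 2253 cases and intronic windows in 64.9% of 678. Of all autosomal windows 44.6% were called, and 68.2% of those outside LINE-1 where controls 2 and 3 averaged 25% or more. The classes were not limited to windows of that level.

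Methylation varied along the copy in every library. From 2000 to 3000 bp on the 5′ side, LINE-1 CpGs (n = 316) averaged 31.7% ± 3.1 in cKO libraries (SD, n = 3), against 66.6% in controls 2 and 3 and 27.8% in control 1. At 750 to 1000 bp on that side (n = 655) they averaged 55.2% ± 3.8 in cKO libraries, against 88.1% in controls 2 and 3 and 51.4% in control 1. Closer to ORF1, at 250 to 500 bp (n = 2320), they averaged 45.1% ± 4.7 in cKO libraries, against 86.3% in controls 2 and 3 and 42.1% in control 1. The highest of the larger cKO bins was thus that at 750 to 1000 bp. From there to the bin at 250 to 500 bp the cKO mean fell by 10.1 points, the mean of controls 2 and 3 fell by 1.78 points and control 1 fell by 9.27 points. The 9 cytosines inside a product averaged 34.8% ± 2.7 in cKO libraries, against 84.9% in controls 2 and 3 and 32.9% in control 1.

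**Figure D4:**
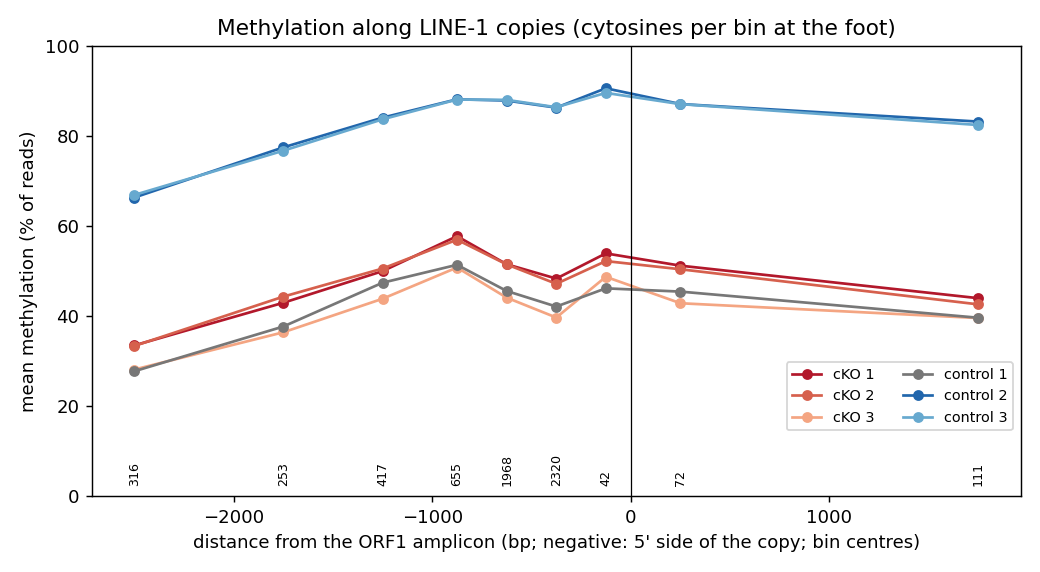
Mean methylation (y axis, percent of reads) of LINE-1 CpGs in each library by distance from the ORF1 product (x axis, bp, negative on the 5′ side, bin centres, with the number of cytosines at the foot). Controls 2 and 3 lie near 88.1% at 750 to 1000 bp on the 5′ side, while the cKO libraries average 55.2% there and control 1 lies at 51.4%.

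LINE-1 CpGs within 500 bp of a product were 5.69 points above those at 1000 to 3000 bp in the mean of the 6 libraries, and higher in 6 of 6 (exact sign-flip permutation p = 0.03125, q = 0.052 over 5 contrasts). The 5′ side was 1.84 points above the 3′ side, also in 6 of 6 libraries (exact sign-flip p = 0.03125, q = 0.052). Soft-masked cytosines were 8.52 points above unmasked ones in 6 of 6 libraries (exact sign-flip p = 0.03125, q = 0.052). None of the 3 contrasts passed the adjusted threshold of 0.05, and 0.03125 is the smallest p that 6 libraries can give. The first contrast was 1.10 points at a coverage of at least 20 reads (exact sign-flip p = 0.40625), 2.40 points with cytosines weighted by reads (p = 0.1875, exact) and 2.58 points with each copy weighted equally (p = 0.03125, exact). The contrast of the sides was 3.43 points at 20 reads, 3.81 points weighted by reads and 3.80 points with each copy weighted equally. The mask contrast was 3.67 points with each copy weighted equally and 2.72 points among cytosines within 1000 bp on the 5′ side, the last chosen after seeing the data. Between cKO and control libraries the exact permutation p of the 5 contrasts was 0.2 to 0.5, where 3 against 3 libraries cannot give a p below 0.1.

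Some LINE-1 CpGs carried little methylation in any library. A set of 130 cytosines around 60 copies was under 20% in both control 2 and control 3, and 86 of these lay more than 1000 bp away on the 5′ side. They averaged 2.54%, 2.40% and 2.54% in cKO 1, 2 and 3 as well, against 2.23% in control 1, and 73 of them lay in sequence that is not soft-masked. The other 899 cytosines of that outer region averaged 44.9% ± 4.0 in cKO libraries (SD, n = 3), against 83.7% in controls 2 and 3 and 42.2% in control 1, close to the mean of all LINE-1 CpGs.

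Copies with exact primer sites had the higher mean in the cKO libraries and in control 1, and the lower mean in control 2 and control 3. Their 1946 cytosines averaged 49.1% ± 3.1 in cKO libraries (SD, n = 3), against 81.2% in controls 2 and 3 and 46.6% in control 1. The 4217 cytosines of copies with mismatched sites averaged 45.7% ± 4.7 in cKO libraries, against 87.4% in controls 2 and 3 and 42.3% in control 1. Exact copies were thus higher than mismatched ones by 2.04, 3.01 and 5.25 points in cKO 1, 2 and 3 and by 4.27 points in control 1, but the same difference was -5.98 and -6.47 points in control 2 and control 3. Over the 6 libraries the contrast averaged 0.35 points (exact sign-flip p = 0.875), and its difference between the groups had an exact permutation p of 0.3, with 0.1 the smallest possible. The average was 8.34 points with cytosines weighted by reads and 6.40 points at a coverage of at least 20 reads (exact sign-flip p = 0.125 for both).

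The comparison was repeated by distance. Within 1000 bp on the 5′ side, exact copies (n = 1313 cytosines) averaged 53.3% ± 3.1 in cKO libraries, against 85.8% in controls 2 and 3 and 50.6% in control 1. Mismatched copies there (n = 3673) averaged 46.1% ± 4.8 in cKO libraries, against 87.8% in controls 2 and 3 and 42.6% in control 1. Beyond 1000 bp on that side, exact copies (n = 607) averaged 40.3% ± 3.3 in cKO libraries, against 71.5% in controls 2 and 3 and 38.3% in control 1. Mismatched copies there (n = 378) averaged 42.4% ± 4.2 in cKO libraries, against 84.7% in controls 2 and 3 and 39.2% in control 1. There the order of the cKO means was the other way round, by less than their SDs. Within 1000 bp 62.2% of the level of controls 2 and 3 was left at exact copies and 52.5% at mismatched ones. Of the products printed above, copies with product 1 (949 cytosines) averaged 53.1% ± 3.2 in cKO libraries, against 79.7% in controls 2 and 3 and 51.2% in control 1. Copies with product 2 (799 cytosines) averaged 44.6% ± 3.3 in cKO libraries, against 82.9% in controls 2 and 3 and 41.7% in control 1.

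Intergenic and intronic LINE-1 CpGs had similar means. The 4645 intergenic cytosines averaged 46.7% ± 4.4 in cKO libraries (SD, n = 3), against 86.1% in controls 2 and 3 and 43.3% in control 1. The 1398 intronic cytosines averaged 48.9% ± 3.7 in cKO libraries, against 85.8% in controls 2 and 3 and 46.9% in control 1. The contrast averaged -1.62 points over the libraries and was positive in 1 of 6 (exact sign-flip p = 0.09375, q = 0.117), and it turned to 2.09 points when cytosines were weighted by reads. In introns, copies in the sense of the host gene averaged 50.4% ± 4.2 in cKO libraries (n = 481 cytosines) and antisense copies 48.2% ± 3.4 (n = 917), against 87.4% and 84.9% in controls 2 and 3 and 46.9% and 46.8% in control 1. The 120 exonic cytosines stood lower, at 26.1% ± 2.5 in cKO libraries, against 57.3% in controls 2 and 3 and 21.1% in control 1. Of these, 38 were under 20% in both control 2 and control 3, and the other 82 averaged 37.4% ± 3.7 in cKO libraries, against 83.1% in controls 2 and 3.

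In the cKO libraries and control 1, methylation was higher where CpGs stood closer together, while controls 2 and 3 were lowest in the densest class. With 1 to 3 CpGs in the surrounding 200 bp (n = 745), LINE-1 CpGs averaged 39.0% ± 5.2 in cKO libraries (SD, n = 3), against 85.3% in controls 2 and 3 and 34.8% in control 1. With 7 to 9 CpGs (n = 1630) they averaged 46.3% ± 4.7 in cKO libraries, against 87.6% in controls 2 and 3 and 43.2% in control 1. With 13 or more (n = 871) they averaged 52.7% ± 2.5 in cKO libraries, against 78.2% in controls 2 and 3 and 50.0% in control 1. The share of the level of controls 2 and 3 that was left in the cKO was thus 45.8% in the sparsest and 67.4% in the densest class. The order was the same among cytosines within 1000 bp on the 5′ side whose 41 bases occur once, with 46.0% left at 1 to 3 CpGs (n = 380) and 64.3% left at 13 or more (n = 384). Controls 2 and 3 averaged 88.0% and 84.3% in these 2 classes, a smaller step than over all LINE-1 CpGs. These values are a description over cytosines that share copies and libraries, and no test was made.

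**Figure D5:**
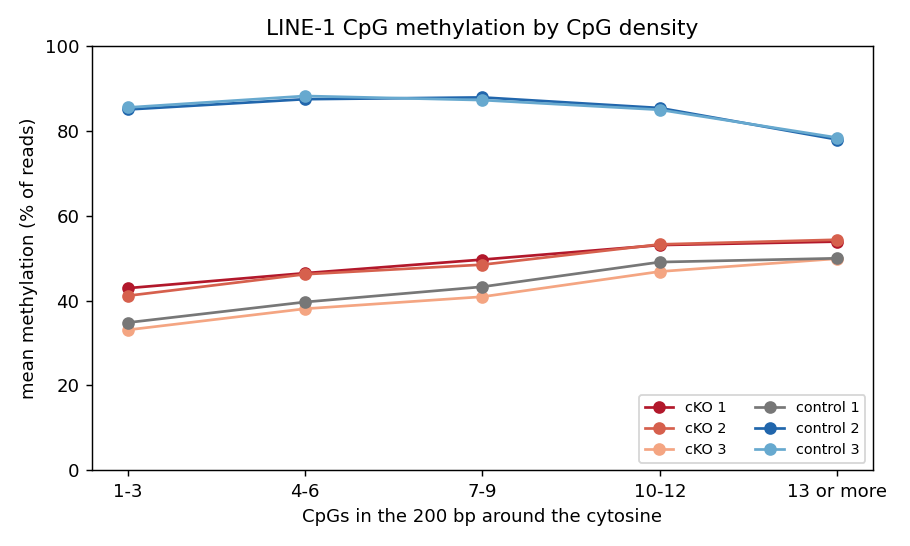
Mean methylation (y axis, percent of reads) of LINE-1 CpGs in each library by the number of CpGs in the surrounding 200 bp (x axis). The cKO mean is 39.0% at 1 to 3 CpGs and 52.7% at 13 or more, against 85.3% and 78.2% in controls 2 and 3.

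The number of times the 41 bases occur in the genome moved with the cKO level too. Cytosines whose 41 bases occur once averaged 45.1% ± 4.4 in cKO libraries, against 85.1% in controls 2 and 3 and 41.9% in control 1. Those with 11 to 100 occurrences (n = 377) averaged 51.4% ± 3.8 in cKO libraries, against 86.9% in controls 2 and 3 and 48.2% in control 1. Those with more than 1000 (n = 191) averaged 60.2% ± 3.0 in cKO libraries, against 87.8% in controls 2 and 3 and 60.2% in control 1. The part of read placement in this gradient was not tested. Restricted to cytosines whose 41 bases occur once, the difference between cKO and control was -25.5 points, near that of all LINE-1 CpGs.

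The 4 contexts printed above differed in what was left. Context 1 (41 cytosines in 41 copies, median position -770 bp, where negative means the 5′ side) had 73.9%, 75.2% and 69.1% in cKO 1, 2 and 3, against 72.0%, 90.6% and 90.5% in control 1, 2 and 3. Context 3 (28 cytosines in 28 copies, median position -723 bp) had 45%, 47.6% and 36.1% in the cKO libraries, against 44.7%, 92.0% and 92.1% in the controls. The 2 contexts lay at similar places in copies that mostly matched the primers exactly (40 of 41 and 26 of 28) and had nearly the same level in controls 2 and 3.

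Context 2 (35 cytosines in 35 copies, median position -298 bp) had 48.2%, 43.0% and 37.4% in cKO 1, 2 and 3, against 39.7%, 88.3% and 87.1% in control 1, 2 and 3. Context 4 (25 cytosines in 24 copies, median position -574 bp) had 57.6%, 56.9% and 57.9% in the cKO libraries, against 59.9%, 93.6% and 92.8% in the controls. The 41 bases around these cytosines occurred a median of 2639, 300, 4272 and 468 times for contexts 1, 2, 3 and 4. Most LINE-1 CpGs had no such relatives, since 4564 lay in a 30-base context seen once among them.

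Contexts 1 and 4 share the letters GCCATCTT, the core of the site of YY1, a zinc finger factor known to bind the promoter of human LINE-1. These letters or their reverse complement AAGATGGC stood within the 41 bases of 729 LINE-1 CpGs (11.8%) and of 2300 of the other autosomal CpGs (0.365%). LINE-1 CpGs with them averaged 56.5% ± 3.4 in cKO libraries (SD, n = 3), against 89.2% in controls 2 and 3 and 55.2% in control 1. LINE-1 CpGs without them averaged 45.5% ± 4.3 in cKO libraries, against 85.0% in controls 2 and 3 and 42.1% in control 1. Among cytosines within 1000 bp on the 5′ side whose 41 bases occur once and with 10 to 12 CpGs around them, those with the letters (n = 97) averaged 56.7% ± 3.8 in cKO libraries and those without (n = 728) 49.8% ± 4.2. In controls 2 and 3 these cytosines averaged 87.1% with the letters and 85.7% without. Primer match was not held equal there, since 58 of the 97 lay at exact copies, against 229 of the 728. The motif was chosen after these sequences were seen, and a match describes letters and not a bound site.

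Single copies differed in the size of the difference. Over the 1648 copies, the median difference between cKO and control was -26.6 points, with quartiles of -33.4 and -18.6. All 3 cKO libraries lay below both control 2 and control 3 in 1566 copies, and below all 3 controls in 288. No such count was made for the rest of the autosomes. Its mean was also lower in the cKO libraries (17.8%) than in controls 2 and 3 (38.5%), so these counts cannot be called particular to LINE-1. The share of the level of controls 2 and 3 left in the cKO had a median of 49.8%, with quartiles of 41% and 62.2%. Across these copies the cKO libraries correlated with each other at r = 0.63 to 0.70 and with control 1 at r = 0.60 to 0.69, while control 1 correlated with control 2 and control 3 at r = 0.35 and 0.33. Control 2 and control 3 correlated with each other at r = 0.75. These values are across copies, which share their libraries and their sequence. The spread over copies was 17.4 to 18.0 points (SD) in the cKO libraries, against 19.2 points in control 1 and 13 and 13.3 points in control 2 and control 3.

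Of 420 copies with at least 5 cytosines and 50 reads in every library, those with the largest and smallest falls were named, and being chosen by this difference their values are a description. The largest fall was on chromosome 9 (product at chr9:9326490-9326547), in intergenic sequence 86909 bp from Arhgap42. Its 5 cytosines averaged 26.2%, 32% and 25.4% in cKO 1, 2 and 3, against 33.8%, 98.9% and 96.0% in control 1, 2 and 3. The next was on chromosome 6 (chr6:133555538-133555595), with 34.4%, 30.7% and 28.5% at 8 cytosines in the cKO libraries, against 46.6%, 91.8% and 91.8% in the controls. The other copies of this kind were intergenic. They lay 106034 bp from Opcml, which encodes a cell adhesion molecule, 11872 bp from Gzmd, which encodes a granzyme, and 482191 bp from Bche, which encodes butyrylcholinesterase, with falls of 43.0 to 43.8 points to cKO means of 28.3% to 42.9%. All 5 had all cKO libraries below all controls, as had 81 of the 420 copies. The ranking used the mean of the 3 controls, so it favours copies where control 1 was high. All 5 had mismatched primer sites, where 589 of all 1648 copies had exact ones.

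The copies with the smallest falls were of different kinds. A pair was nearly free of methylation in every library. On the 5′ side of a copy antisense to Dtx4, which encodes a ubiquitin ligase of the Notch pathway, 31 cytosines averaged 0.69%, 1.52% and 1.01% in cKO 1, 2 and 3, against 0%, 1.11% and 0.26% in control 1, 2 and 3. At Smn1, the mouse gene for the survival motor neuron protein, 14 cytosines averaged 0.85% in the cKO and 0.70% in the control libraries. Both sets lay at positions -1565 to -2533 bp, far to the 5′ side of the product, in exons and next to them, and none of their cytosines was soft-masked.

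The other copies with the smallest falls stayed methylated in their mean in every library, though not at every cytosine. In an intron of Hdac9, a histone deacetylase gene, 5 cytosines of an antisense copy (chr12:34734220-34734277) averaged 97.9%, 94.7% and 97% in cKO 1, 2 and 3, against 97%, 97.1% and 95.8% in control 1, 2 and 3. The 41 bases of each of these cytosines occur at least 2 times in the genome, and up to 1256 times. A copy 29829 bp from Speer2 on chromosome 16 (chr16:69893956-69894013) averaged 80%, 77% and 76.3% in the cKO libraries, against 75.6%, 76.1% and 79.4% in the controls. Its cytosine at chr16:69893585 had only 15.4%, 14.8% and 13.2% in the cKO libraries, against 22.2%, 8.33% and 5.80% in the controls. A copy 248081 bp from Kynu, which encodes kynureninase, on chromosome 2 (chr2:43306603-43306660) averaged 67.7%, 67.4% and 63.4% in the cKO libraries, against 65.5%, 65.6% and 70.2% in the controls. In these 3 copies the groups overlapped, and control 1 was at the level of control 2 and control 3.

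Neighbouring CpGs of one copy could stand at opposite ends. The 4 contexts below are shown to set the copy that fell most beside those that did not, each in the sense of its copy with the measured CpG in capitals. They lie at chr9:9326015-9326044 (plus strand copy with Arhgap42 as nearest coding gene), chr12:34733522-34733551 (plus strand copy in Hdac9), and chr2:43307233-43307262 and chr2:43307238-43307267 (minus strand copy with Kynu as nearest coding gene).
Arhgap42 copy: ggcagcacccttttCGggccgcagactgcc
Hdac9 copy: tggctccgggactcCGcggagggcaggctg
Kynu copy CpG a: cacaggtgacggtgCGgaatacagaggcca
Kynu copy CpG b: ggctgcacaggtgaCGgtgcggaatacaga
The Arhgap42 CpG had 25%, 24% and 16.7% in cKO 1, 2 and 3, against 53.8%, 100% and 100% in control 1, 2 and 3. Kynu CpG a had 0%, 0% and 0.58% in the cKO libraries, against 0.95%, 0.39% and 0.65% in the controls, at 105 to 309 reads. Kynu CpG b, 5 bp away, had 96.5%, 97.5% and 94.7% in the cKO libraries, against 97.1%, 98.4% and 100% in the controls. The groups overlapped at both Kynu CpGs, and the 41 bases of both CpGs occur once in the genome. Their coverage was far above the library medians of 19 to 31.0 reads at LINE-1 CpGs. Whether reads of other copies were placed there was not tested. Whether the sequence of these embryos differed from the reference at CpG a was not tested either. The context printed for the Hdac9 copy occurred at 21 LINE-1 CpGs in 20 copies, which together averaged 63.7% ± 1.8 in cKO libraries, against 91.5% in controls 2 and 3 and 63.0% in control 1.

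Among the copies with most cytosines, an intergenic copy on chromosome 1 (chr1:7712432-7712489, 23 cytosines) averaged 71.6%, 70.5% and 62.5% in cKO 1, 2 and 3, against 68.6%, 80.6% and 86.9% in control 1, 2 and 3. A copy in an intron of 1700030F04Rik on chromosome 6 (22 cytosines) averaged 49.9%, 50.2% and 45.6% in the cKO libraries, against 42.2%, 89.4% and 90.1% in the controls. Intergenic copies 147740 bp from Scgb1b7 (20 cytosines) and 44041 bp from Lhfpl2 (17 cytosines) had cKO means of 57.9% ± 11 and 48.5% ± 4.8, against control means of 82.5% ± 22.5 and 69.7% ± 25 (SD, n = 3 each). In all 4, the cKO libraries lay below control 2 and control 3, and control 1 lay within or below the cKO range.

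The 5 named copies with a cytosine inside the product lay on chromosomes 12, 16, 5, 9 and 6 and were all intergenic. Their cKO means were 29.6% to 59.9%, against means of controls 2 and 3 of 75.7% to 94.2%. The highest of them, on chromosome 12 (chr12:49553608-49553665, 15 cytosines, all with 41 bases that occur once), averaged 60.5%, 61.7% and 57.4% in cKO 1, 2 and 3, against 50.5%, 93.7% and 94.7% in control 1, 2 and 3. By chromosome, the cKO mean of LINE-1 CpGs was 43.7% to 49.4% on 18 of the 19 autosomes, against 82.8% to 87.7% in controls 2 and 3. Chromosome 19, which holds the unmethylated Dtx4 set, stood at 38.7%, against 67.6% in controls 2 and 3.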

How the data were processed

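The deposited files give for each cytosine its read count (coverage) and, as percent values, how many of the reads showed C and T. The authors aligned Ox-RRBS reads to GRCm38 with Genomatix software allowing no mismatch, dropped thinly covered positions and used methylKit in R, and the percent values were not normalised between libraries. How reads with several equally good places were handled is not given in the sources used here. Methylated reads were recovered as coverage times percent, which matched the files within 0.005 points.

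Primers were matched to the GRCm38 sequence, and genes came from GENCODE M21. Means weighted cytosines equally. Libraries were compared with two-sided exact permutation tests (20 splits, 10 without control 1), and class contrasts with exact sign-flip tests (64 patterns) and Benjamini-Hochberg adjustment. Reads summed over 100 bp windows were fitted with a quasi-binomial model on all 280595 autosomal windows, with dispersions moderated by limma 3.58.1 (R 4.3.3, prior from windows of 5 to 95 percent, floor of 1). The window test was checked on simulated reads with known falls, where only part of the falls was called. There a q under the threshold alone gave some false calls, mostly in deeply covered windows, of which some were 10 points apart and none 25. Means used Python 3.11.15, numpy 2.4.6 and pandas 2.3.3, and figures matplotlib 3.10.9.

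Copies were named by rule, up to 5 each: the largest falls, the smallest falls, the most cytosines, and a cytosine inside the product with most reads. LINE-1 CpGs, classes and tests were chosen with earlier results of these data known. Coverage minima of 10 and 20, distance limits of 500 and 1000 bp, fewer primer mismatches, other weights, other window tests and the omission of each library were tried. PCR copies of one molecule could not be told apart, and errors are SDs over libraries.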

Additional observations from a re-analysis of the deposited data

How the results depend on the processing

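Leaving out control 1 changed the window calls, the share left and the differences in level most. The contrasts of distance, side and mask changed little, at 6.13, 1.85 and 8.30 points without it. Leaving out each library in turn moved the share of the control level left in the cKO between 54.7% (without control 1) and 72.5% (without control 3), and the windows called lower between 0 and 2109 (without control 1, and 0 without each of the other 5). The LINE-1 mean difference ranged from -38.7 to -17.8 points and the difference to the rest from -18.0 to -8.68 points, without a change of direction. The contrast of exact with mismatched primer sites ranged from -0.62 to 1.72 points and reversed without control 1 (-0.43), cKO 2 (-0.18) or cKO 3 (-0.62). Chosen after seeing the data, the log2 ratio of LINE-1 to the rest reversed the direction of that comparison (0.12, exact permutation p = 0.4). At a coverage of at least 10 reads, 4 contrasts passed the adjusted threshold (q = 0.039 each by the exact sign-flip test): intergenic minus intronic at -2.87 points, within 500 bp minus 1000 to 3000 bp at 3.38, the 5′ minus the 3′ side at 3.70 and soft-masked minus unmasked at 7.43. At 20 reads none passed. The exact-site contrast was 2.80 points at 10 reads and 4.29 points within 1000 bp on the 5′ side (the last chosen after seeing the data). Intergenic minus intronic reversed to 2.09 points with cytosines weighted by reads, and the contrast of CpGs whose 41 bases occur once with the others, set in place of the mask, was -4.95 points. The cause of these changes was not tested. The plain binomial test, which ignores the spread between libraries, called 1594 LINE-1 windows lower (53.6%, against 37.4% of all windows). Without control 1, 2353 were called at q under 0.05 (79.1%, against 52.3% of all windows) and 2277 with a prior that follows depth (76.6%, against 50.0%). Also without control 1, 2229 were called at a difference of 10 points (against 45.5% of all windows), a limit at which simulated reads gave some false calls. Of 1941 windows with 41 bases that occur once, 1429 were called without control 1 (73.6%, against 44.6% of all windows). These 4 settings were chosen after seeing the data. No other window setting called any. The replicate numbers did not pair the libraries: deviations of same-numbered libraries from their group means correlated at r = -0.19, 0.06 and -0.23 over windows. With a replicate block the LINE-1 difference was -24.7 points (exact sign-flip p = 0.5) and the difference to the rest -11.9 points (p = 0.5, exact), and limma with the block called 0 windows. Coverage of 6 reads or more per cytosine limits the precision of single CpGs.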
